A study of Mus musculus with 18 samples.

Results

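RNA of the RPE/choroid was compared between 1 month (day 30) and 1 week (day 7) after an intravitreal injection, over all 9 day 30 arrays and all 9 day 7 arrays of the 18 arrays of the series. The animals were male C57BL6/J mice, a pigmented laboratory strain, that received 1 μL of TAA (triamcinolone acetonide, 25 μg), of Dex (dexamethasone, 10 μg) or of BSS, the balanced salt solution that served as the vehicle of both steroids. Each treatment has 3 arrays at day 30 and 3 at day 7. According to the labels each array holds RNA of a separate animal. The labels give an age of 2 months and the methods an age of 6 to 8 weeks at the start. All animals were injected on the same occasion and tissue was taken in the morning within 1 h, by the methods, and no source used here states the clock hour of either day. By the methods, the arrays were run on the animals with the best RNA out of 4 per group. The day of collection, the age of the animals and the time since injection therefore cannot be told apart. Every group was injected, so that no uninjected eye is compared.

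The retinal pigment epithelium (RPE) is the pigmented cell layer that nourishes the photoreceptors and takes up the tips they shed each morning, and the choroid is the vessel layer behind it. In mammalian cells a daily clock is formed by activators, Bmal1 (the product of Arntl) with Clock or Npas2, that bind E-box DNA elements and switch on their own repressors of the Per and Cry families. The same activators switch on Nr1d1 and Nr1d2, whose proteins repress Arntl, Clock, Npas2 and Nfil3 through the Rev-erb/Ror element, and the genes Dbp, Tef and Hlf, whose proteins act at D-boxes that Nfil3 also binds as a repressor. Messenger RNAs of the activator arm and of the repressor arm therefore peak at opposite times of the day in many tissues.

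The values are on a log2 scale after RMA normalization, with the median of all 18 arrays set to 0 for each probe set. They show how an array differs from the others and hold no expression level, so that neither the presence of RPE markers nor levels of different genes can be compared. Day 30 and day 7 were compared with limma, with treatment as a block, and p-values were adjusted by the Benjamini-Hochberg method over all 45101 probe sets. A probe set was called at an adjusted p under 0.05. It was counted as shared by the 3 treatments when it was called and when, within BSS, within Dex and within TAA, the 3 day 30 arrays all lay on the same side of the 3 day 7 arrays. Log2 fold changes are day 30 minus day 7, with the SE of the difference.

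The promoter stretches of 7 shared genes that belong to the lists of clock and rhythmic genes are shown because they hold the letters of a clock element, given in capitals. They come from the RefSeq promoter table of GRCm38.p6, are written 5′ to 3′ in the direction of the gene, and lie within the 250 bases before an annotated start. Elements were searched on both strands. The E-box was searched as CACGTG. In the stretch of Ciart (chr3:95882247-95882364, minus strand) it occurs 3 times, and in those of Tspan4 (chr7:141476309-141476354, plus strand), Coq10b (chr1:55052672-55052717, plus strand) and the 2 starts of Tef (chr15:81802526-81802571 and chr15:81811256-81811301, plus strand) once each.
Ciart: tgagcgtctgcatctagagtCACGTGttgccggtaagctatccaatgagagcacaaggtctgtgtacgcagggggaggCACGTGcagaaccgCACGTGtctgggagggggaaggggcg
Tspan4: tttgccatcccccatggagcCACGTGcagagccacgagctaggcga
Coq10b: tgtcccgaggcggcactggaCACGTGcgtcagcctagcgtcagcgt
Tef, upstream start: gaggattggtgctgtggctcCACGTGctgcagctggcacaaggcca
Tef, downstream start: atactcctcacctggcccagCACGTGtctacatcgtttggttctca

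The D-box was searched as TTANGTAA and occurs 2 times in the stretch of Per3 (chr4:151044796-151044890, minus strand) and once in another stretch of Coq10b (chr1:55052588-55052635, plus strand, where it is read on the opposite strand). The Rev-erb/Ror element, searched as NTAGGTCA, occurs in the stretches of Nfil3 (chr13:52981040-52981071, minus strand, where it is read on the opposite strand) and of Leo1 (chr9:75441440-75441487, plus strand).
Per3: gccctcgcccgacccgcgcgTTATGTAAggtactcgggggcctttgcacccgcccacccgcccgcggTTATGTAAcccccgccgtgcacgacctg
Coq10b: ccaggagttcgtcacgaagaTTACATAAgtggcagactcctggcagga
Nfil3: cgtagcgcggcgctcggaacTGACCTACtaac
Leo1: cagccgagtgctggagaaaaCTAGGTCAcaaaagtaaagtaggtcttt

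Of the 115 shared genes 87 were matched to the promoter table by symbol. Per2 and Wee1 were among those without a window. The E-box letters occurred in 7 of these 87 genes, or 8.05%, beside 6.86% of all 27025 genes of the table. The D-box letters occurred in 3 of 87 (2.44% of all genes) and the Rev-erb/Ror letters in 3 of 87 (2.53% of all genes). The letters AGAACA, which are part of the element bound by the glucocorticoid receptor, occurred in 13 of 87, or 14.9%, beside 18.2% of all genes. The windows of Arntl, Npas2, Clock, Nr1d1 and Nr1d2 held none of the letters of the 3 clock elements. A match of letters is a description of the window and no evidence that a protein binds there.

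Between the days, 286 of 45101 probe sets were called, 76 higher and 210 lower at day 30. This is 0.634% of the probe sets tested, with 0.169% called higher and 0.466% called lower. Without adjustment, 6425 probe sets had a p under 0.05. The arrays of the 2 days did not overlap within any treatment for 176 probe sets (0.39%), and 130 probe sets (0.288%) were shared by the 3 treatments, 35 higher and 95 lower at day 30. Of the 130, 119 are annotated with 1 gene symbol and stand for 115 genes, 31 higher and 84 lower. The difference reached a fold of 1.5 in 45 shared probe sets (8 higher, 37 lower) and a fold of 2 in 8 (2 higher, 6 lower). In 69 of the 130, all 9 day 30 arrays lay beyond all 9 day 7 arrays, which happened in 74 of all probe sets. The median probe set of the whole array differed by -0.02 between the days.

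**Figure D1:**
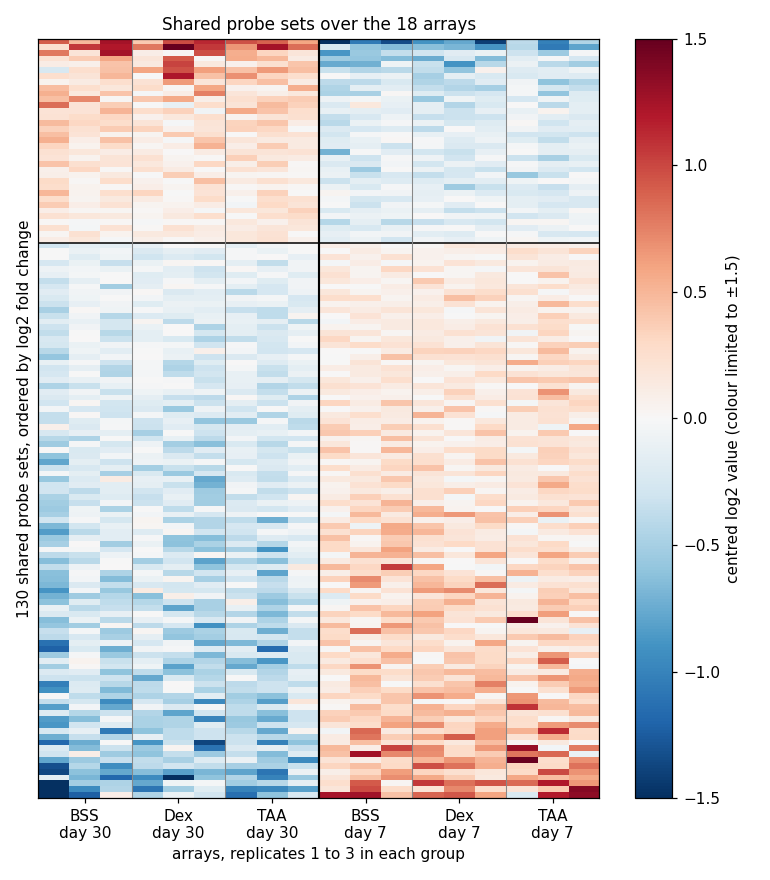
Centred log2 values of the 130 shared probe sets (rows, ordered by log2 fold change) on the 18 arrays (columns, day 30 left of the thick line and day 7 right of it, 3 replicates in each group). Red is above and blue below the median of all arrays. The 35 probe sets above the horizontal line were higher at day 30 and the 95 below it were lower at day 30, and within each treatment the 3 day 30 arrays lie on 1 side of the 3 day 7 arrays, because the probe sets were chosen for it.

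Arntl, which encodes the clock activator Bmal1, showed the largest difference of all shared genes. Its day 30 arrays had 0.91, 0.49 and 1.25 after BSS, against -1.70, -1.06 and -1.34 on the day 7 arrays. After Dex the day 30 arrays had 0.40, 0.97 and 1.14, against -0.89, -0.77 and -1.42 at day 7. After TAA the day 30 arrays had 0.96, 0.89 and 0.59, against -0.40, -1.01 and -0.45 at day 7. Every day 30 array lay above every day 7 array, with a distance that was widest after BSS. The log2 fold change was 1.85 (SE 0.16, 95% interval 1.52 to 2.18, adjusted p = 4.86e-05), a 3.6-fold difference, and within the treatments it was 2.25 for BSS, 1.86 for Dex and 1.43 for TAA (SE 0.25 each).

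Npas2, a partner of Bmal1 that can stand in for Clock, was also higher at day 30. Its lowest, median and highest values were 0.24, 1.06 and 1.53 on the day 30 arrays and -1.06, -0.65 and -0.24 on the day 7 arrays, without overlap. It was 3.07-fold higher at day 30 (log2 fold change 1.62, SE 0.15, adjusted p = 5.57e-05), with 1.32 after BSS, 1.86 after Dex and 1.67 after TAA. Clock itself, the usual partner, had -0.05, 0.27 and 0.57 at day 30 and -0.32, -0.13 and 0.05 at day 7. Its days overlapped in 1 array each, the Dex day 30 replicate 3 and the TAA day 7 replicate 2, and its log2 fold change was 0.44 (SE 0.07, adjusted p = 0.00543). The nuclear receptors that activate Arntl were not called: Rora had -0.33 (SE 0.11, adjusted p = 0.178) and Rorb 0.46 (SE 0.23, adjusted p = 0.377), and the Arntl paralog Arntl2 had 0.21 (SE 0.13, adjusted p = 0.471).

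Of the repressors that the activators switch on, Per2 and Per3 were lower at day 30 in every treatment. Per2 had -1.63, -0.68 and -0.15 as lowest, median and highest values at day 30 and 0.15, 0.47 and 0.70 at day 7, a 2.37-fold difference (log2 fold change -1.25, SE 0.14, adjusted p = 0.000623). Per3 had -0.79, -0.38 and -0.19 at day 30 and 0.19, 0.40 and 0.54 at day 7 (log2 fold change -0.79, SE 0.07, adjusted p = 5.83e-05). Neither gene had an overlap between the days. Per1, which light and glucocorticoids also induce, was called over all treatments (-0.65, SE 0.12, adjusted p = 0.024) but was not shared. Its difference was -0.25 after BSS, -0.65 after Dex and -1.04 after TAA (SE 0.18 each), and its BSS arrays overlapped, with -0.03, -0.49 and -0.30 at day 30 against 0.03, 0.06 and -0.15 at day 7. Among the cryptochromes, which bind the Per proteins, Cry1 had -0.12 (SE 0.11, 95% interval -0.35 to 0.11) and Cry2 had -0.22 (SE 0.08, 95% interval -0.38 to -0.05), and neither was called (adjusted p = 0.671 and 0.228).

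Ciart, a repressor that binds Bmal1 and whose promoter stretch above holds the 3 E-boxes, had -0.62, -0.38 and -0.12 at day 30 and 0.12, 0.29 and 0.54 at day 7. It was lower in all treatments, by -0.57 after BSS, -0.94 after Dex and -0.53 after TAA, and by -0.68 over all (SE 0.08, adjusted p = 0.00109). Cipc, an inhibitor of the Clock protein, had -0.43 (SE 0.12, adjusted p = 0.13) and Timeless, the homolog of a clock gene of the fly, had -0.23 (SE 0.10, adjusted p = 0.297). Neither was called.

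**Figure D2:**
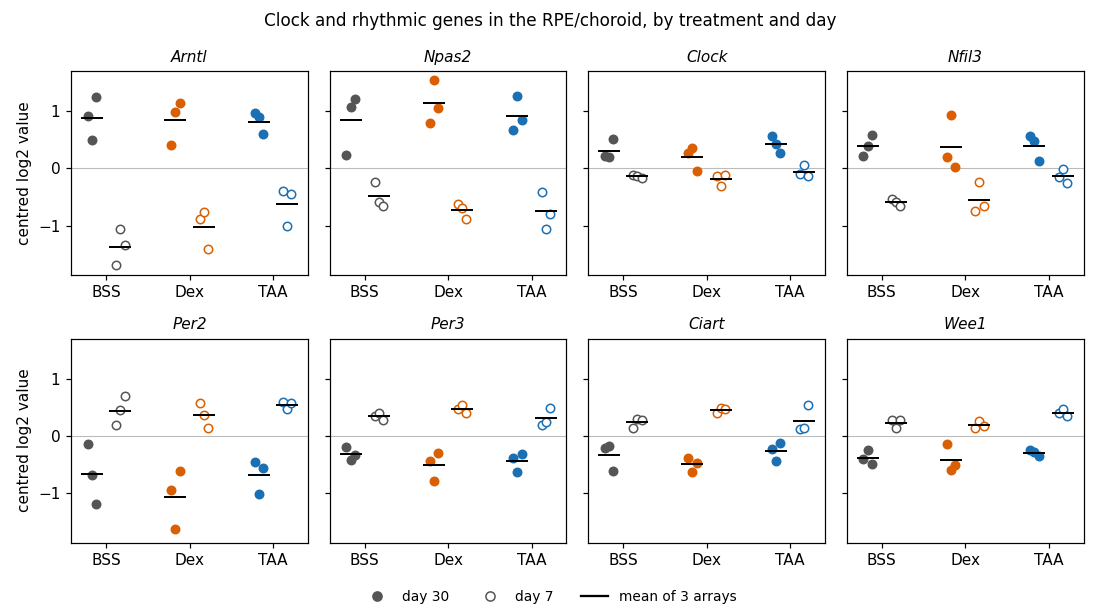
Centred log2 values of Arntl, Npas2, Clock, Nfil3, Per2, Per3, Ciart and Wee1 by treatment (horizontal axis); filled points are the 3 day 30 arrays and open points the 3 day 7 arrays of a treatment, and bars are their means. In the upper row the day 30 points lie above the day 7 points and in the lower row below them, by log2 fold changes that run between 1.85 for Arntl and -1.25 for Per2.

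The Rev-erb receptors and the D-box binding factors divided in the same way. Nr1d1 had -0.68, -0.24 and -0.0037 at day 30 and 0.0037, 0.24 and 0.84 at day 7 (log2 fold change -0.59, SE 0.10, adjusted p = 0.0131). Nr1d2 had -0.79, -0.36 and -0.03 at day 30 and 0.03, 0.33 and 0.43 at day 7 (log2 fold change -0.63, SE 0.09, adjusted p = 0.00285). Tef, an activator at D-boxes, had -0.62, -0.44 and -0.0024 at day 30 and 0.0024, 0.32 and 0.68 at day 7 (log2 fold change -0.72, SE 0.10, adjusted p = 0.00348). Each of the 3 genes had its 9 day 30 arrays below its 9 day 7 arrays, by a margin close to 0 for Nr1d1 and Tef. Dbp, the related activator, was called (-0.64, SE 0.13, adjusted p = 0.0275) but not shared, since its BSS day 30 replicate 1 had 0.11 and its BSS day 7 replicate 1 had -0.02, and it was called in 11 of the 18 fits that leave out 1 array (adjusted p up to 0.0667, without the TAA day 30 replicate 2). The third member of that family, Hlf, had -0.34 (SE 0.10, adjusted p = 0.12).

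Nfil3, the repressor at D-boxes, moved with Arntl. It had 0.02, 0.38 and 0.92 at day 30 and -0.74, -0.53 and -0.02 at day 7, and was 1.75-fold higher (log2 fold change 0.81, SE 0.12, adjusted p = 0.00413). The repressors Bhlhe40 and Bhlhe41, which bind E-boxes, had -0.42 (SE 0.11, adjusted p = 0.0792) and -0.13 (SE 0.10, adjusted p = 0.579) and were not called.

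Further genes known to cycle in many tissues were among the shared ones. Wee1, a kinase that holds back cell division, had -0.59, -0.35 and -0.14 at day 30 and 0.14, 0.28 and 0.47 at day 7. On this probe set it was lower by nearly the same amount after BSS (-0.61), Dex (-0.60) and TAA (-0.70), with -0.64 over all (SE 0.06, adjusted p = 5.57e-05). Its other shared probe set had -0.37 over all, with -0.28 after BSS, -0.24 after Dex and -0.58 after TAA. Tspan4, a membrane protein of the tetraspanin family, had -0.61 (SE 0.10, adjusted p = 0.00715), and Coq10b, a mitochondrial protein that binds coenzyme Q, had -0.42 (SE 0.08, adjusted p = 0.017). Leo1, a subunit of the Paf1 complex that travels with RNA polymerase, was higher, with 0.05, 0.21 and 0.31 at day 30 and -0.35, -0.24 and -0.05 at day 7 (log2 fold change 0.42, SE 0.05, adjusted p = 0.000839).

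Counted on gene values, the mean of all probe sets of a gene, 38 of 18194 genes were called higher (0.209%) and 83 lower (0.456%). Of the 6 clock activators measured, 3 were called higher (Arntl, Npas2 and Clock) and 0 lower, with a list median of 0.32. Of the 8 Per and Cry repressors and their helpers, 4 were called lower (Ciart, Per1, Per2 and Per3), 0 were called higher, and all 8 lay below 0, with a median of -0.27. Of the 8 genes of the Rev-erb, PAR bZIP and Dec group, 1 was called higher (Nfil3) and 4 lower (Nr1d1, Nr1d2, Dbp and Tef). Of 17 other rhythmic genes 1 was called higher (Leo1) and 6 lower, a count that includes Ciart again, and of 7 clock kinases and ligases 0 were called in either direction. The median gene of the array had -0.02, and of the probe sets with an unadjusted p under 0.05 by limma, 3877 were lower and 2548 higher. Some members of these lists were singled out earlier on these same arrays, so that the counts are no independent evidence, and values from the mean of several probe sets are smaller than those above.

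Outside the clock, the shared genes with the largest differences were lower at day 30. Bpifb1, a secreted protein of mucosal surfaces, had -2.56, -0.45 and 0.09 at day 30 and -0.23, 0.93 and 1.34 at day 7, and was 2.97-fold lower (log2 fold change -1.57, SE 0.30, adjusted p = 0.0242). Prg4, which encodes the lubricant lubricin, had -1.57, -0.95 and -0.18 at day 30 and 0.18, 0.28 and 1.38 at day 7 (log2 fold change -1.35, SE 0.19, adjusted p = 0.00348). Angptl7, a secreted protein of the eye's outflow tissue that glucocorticoids induce there, had -1.73, -0.47 and -0.03 at day 30 and 0.03, 0.84 and 1.20 at day 7 (log2 fold change -1.27, SE 0.17, adjusted p = 0.002). For Prg4 and Angptl7 the days did not overlap over all 18 arrays, while for Bpifb1 they did between treatments. Bpifb1 was called in 15 of the 18 fits that leave out 1 array (adjusted p up to 0.0595, without the TAA day 7 replicate 2). Angptl7 differed by close to the same amount after BSS (-1.31), Dex (-1.24) and TAA (-1.26), with a difference of TAA minus BSS of 0.05 (95% interval ± 0.92). Of the 12 genes of a list of steroid glaucoma and outflow matrix genes, 2 were called lower, Prg4 and Angptl7, and 0 higher. Over all genes, 0.456% were called lower and 0.209% higher.

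Fibin, a secreted protein first described in the fin bud of the zebrafish, had -0.73, -0.38 and -0.12 at day 30 and 0.12, 0.54 and 0.91 at day 7 (log2 fold change -0.89, SE 0.09, adjusted p = 7.4e-05). Ccl11, or eotaxin, which attracts eosinophils, had -0.65, -0.36 and 0.10 at day 30 and -0.10, 0.70 and 1.26 at day 7 (log2 fold change -0.97, SE 0.14, adjusted p = 0.00348). Its days overlapped only between treatments, through the BSS day 30 replicate 2 and the TAA day 7 replicate 3. Sema3c, a guidance signal, was lower by 0.88 on the log2 scale (log2 fold change -0.88, SE 0.16, adjusted p = 0.0183).

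**Figure D3:**
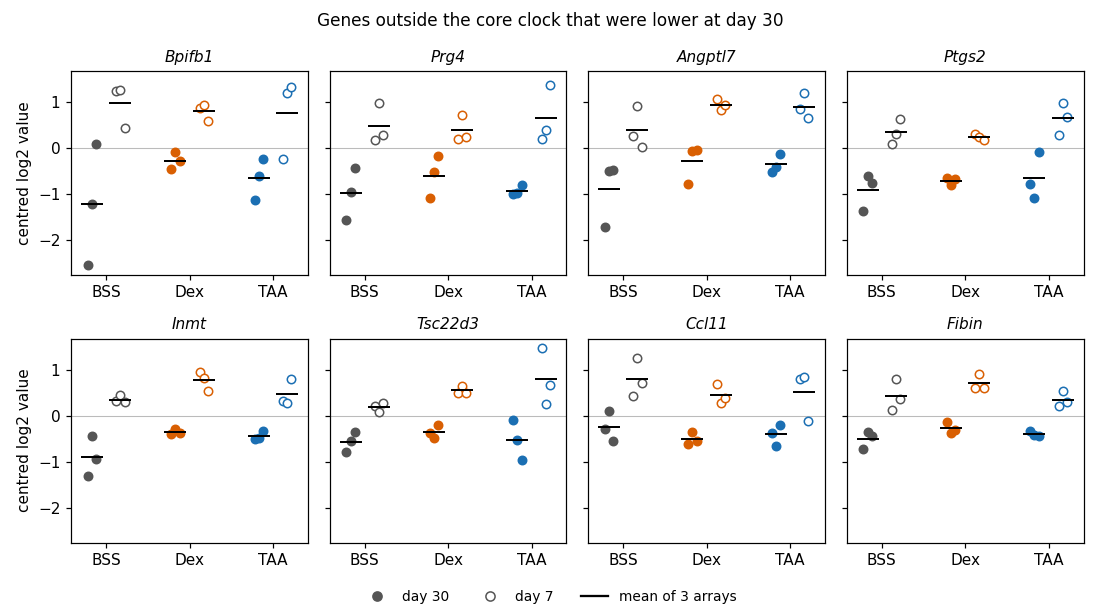
Centred log2 values of Bpifb1, Prg4, Angptl7, Ptgs2, Inmt, Tsc22d3, Ccl11 and Fibin by treatment (horizontal axis), with the 3 day 30 arrays as filled points, the 3 day 7 arrays as open points and bars for their means. The day 30 points lie below the day 7 points of the same treatment in each panel, with log2 fold changes between -1.57 for Bpifb1 and -0.89 for Fibin, and the lowest single point is BSS day 30 replicate 1 for Bpifb1 at -2.56.

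Ptgs2, the inducible cyclooxygenase that starts prostaglandin synthesis, had -1.36, -0.77 and -0.09 at day 30 and 0.09, 0.31 and 0.99 at day 7. It was 2.25-fold lower (log2 fold change -1.17, SE 0.14, adjusted p = 0.000623), with -1.26 after BSS, -0.95 after Dex and -1.31 after TAA. Pla2g4a, the phospholipase that releases the arachidonic acid from which prostaglandins are made, had -0.49 (SE 0.10, adjusted p = 0.0335). These were the 2 members called among 16 prostaglandin genes, both lower, beside 0.456% of all genes called lower. The list median was -0.13. Pla2g4a was called in 8 of the 18 fits that leave out 1 array (adjusted p up to 0.073, without the Dex day 30 replicate 3).

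Tsc22d3, or Gilz, an anti-inflammatory gene that glucocorticoids induce and that also cycles, had -0.95, -0.48 and -0.08 at day 30 and 0.08, 0.50 and 1.48 at day 7. It was lower in the vehicle group as well, by -0.75 after BSS, -0.90 after Dex and -1.33 after TAA (SE 0.25 each), with -0.99 over all (SE 0.15, adjusted p = 0.00494). Of 24 glucocorticoid-induced genes, 2 were called lower and 0 higher, beside 0.456% of all genes called lower and 0.209% higher. The 2 were Tsc22d3 and Per1, both of which also belong to the clock or rhythmic lists. Other classic targets were not called on gene values, with -0.22 for Fkbp5 (adjusted p = 0.294), -0.04 for Sgk1 (adjusted p = 0.761) and -0.32 for Zbtb16 (adjusted p = 0.269), and the list median was -0.08.

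Inmt, a methyltransferase that acts on indole amines, had -1.31, -0.43 and -0.29 at day 30 and 0.29, 0.45 and 0.97 at day 7, and was 2.14-fold lower (log2 fold change -1.10, SE 0.10, adjusted p = 5.83e-05). It was the 1 gene called among 8 of methylation and the methionine cycle, beside 0.456% of all genes called lower. All 8 lay below 0. Mthfd1l, a mitochondrial enzyme of folate metabolism, had -0.87, -0.31 and -0.18 at day 30 and 0.18, 0.56 and 0.70 at day 7 (log2 fold change -0.86, SE 0.10, adjusted p = 0.000599). Fmo2, a flavin monooxygenase that oxidizes foreign compounds, had -0.97 (SE 0.17, adjusted p = 0.0173). Cert1, which carries ceramide to the Golgi, had -0.99, -0.57 and -0.03 at day 30 and 0.03, 0.31 and 0.51 at day 7 (log2 fold change -0.84, SE 0.10, adjusted p = 0.001), and Prkx, a kinase related to protein kinase A, had -0.93 (SE 0.15, adjusted p = 0.0111).

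Among matrix genes, Col5a2 and Col14a1 were the 2 of 17 collagens called, both lower on gene values (-0.59 and -0.51). Over all genes, 0.456% were called lower. Of the 17 collagens 15 lay below 0, with a list median of -0.30. The median was -0.46 after BSS, -0.25 after Dex and -0.097 after TAA. Col5a2, a chain of the collagen that regulates fibril width, was shared (-0.60, SE 0.11, adjusted p = 0.0165). Col14a1, a collagen that binds to fibrils, was not shared, and was called in 11 of the 18 fits that leave out 1 array (adjusted p up to 0.0656, without the TAA day 7 replicate 2). Further matrix genes called over all treatments but not shared were the cartilage proteoglycan Epyc (-0.69, SE 0.14, adjusted p = 0.0346) and Fbln2, a fibulin of elastic fibres (-0.49, SE 0.10, adjusted p = 0.0277), which were called in 8 and in 11 of these 18 fits (adjusted p up to 0.0788 for Epyc and 0.0667 for Fbln2, both without the TAA day 30 replicate 2). The mean of the collagen list was lowest on BSS day 30 replicate 1, at -0.63, and the other day 30 arrays lay between -0.22 and 0.02.

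Fewer genes outside the clock were higher at day 30. Avpr1a, a receptor for vasopressin, had 0.06, 0.15 and 1.01 at day 30 and -0.90, -0.41 and -0.06 at day 7 (log2 fold change 0.76, SE 0.14, adjusted p = 0.0173), and its other probe set was called as well. Tmem45a, a transmembrane protein, had -0.24, 0.45 and 0.96 at day 30 and -0.59, -0.34 and 0.06 at day 7 (log2 fold change 0.73, SE 0.10, adjusted p = 0.00359). Syt17, a synaptotagmin, had 0.53 (SE 0.09, adjusted p = 0.0131), with no overlap between the days. Srr, which makes the neurotransmitter D-serine, had 0.42 (SE 0.07, adjusted p = 0.00929), and Mtor, the nutrient-sensing kinase, had 0.37 (SE 0.06, adjusted p = 0.0118). The uncharacterized D430042O09Rik had 0.84 (SE 0.16, adjusted p = 0.0253), with 1.34 after BSS, 0.55 after Dex and 0.64 after TAA. Spon2, a secreted matrix protein, had 0.61 (SE 0.13, adjusted p = 0.0335) and Proser2 had 0.61 (SE 0.08, adjusted p = 0.00285). Ppip5k1, an inositol pyrophosphate kinase, had 0.37 (SE 0.07, adjusted p = 0.0227) and the unnamed locus AW046200 had 0.54 (SE 0.11, adjusted p = 0.028). In the 18 fits that leave out 1 array, Spon2 was called in 6 (adjusted p up to 0.0709, without the Dex day 7 replicate 1), AW046200 in 9 (up to 0.0656), D430042O09Rik in 13 (up to 0.061) and Ppip5k1 in 16 (up to 0.0524), the last 3 with their highest value without the TAA day 7 replicate 2.

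Other shared genes were picked for description after their values were seen. Fmo1, the paralog of Fmo2, had -0.74 (SE 0.11, adjusted p = 0.0066), the cation channel Trpm3, whose gene hosts a microRNA of the RPE, had -0.70 (SE 0.08, adjusted p = 0.000839), and the organic anion transporter Slco1a5 had -0.73 (SE 0.13, adjusted p = 0.0189). Receptors among them were Lpar1 for lysophosphatidic acid (-0.67, SE 0.11, adjusted p = 0.0118), Lepr for leptin (-0.63, SE 0.11, adjusted p = 0.0131) and, with the smallest difference, Egfr for epidermal growth factor (-0.19, SE 0.04, adjusted p = 0.0422). Sptlc2, a subunit of the enzyme that starts sphingolipid synthesis, had -0.33 (SE 0.06, adjusted p = 0.0272). Col8a1, a collagen of Bruch's membrane, had -0.66 on its shared probe set (SE 0.13, adjusted p = 0.024) but was not called on gene values (-0.32, adjusted p = 0.124). Adm, the vasodilator peptide adrenomedullin, had -0.65 (SE 0.14, adjusted p = 0.0478), and Klf6, a zinc finger factor, had -0.64 (SE 0.14, adjusted p = 0.0445).

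Of the 115 shared genes, 89 had more than 1 probe set, and in 62 of these every probe set had the same sign. The size differed widely between probe sets of a gene. The other probe set of Arntl had 0.21 and that of Npas2 0.17. The 3 probe sets of Per2 ran between -1.25 and -0.03, the 6 of Per3 between -0.79 and 0.02, the 4 of Cert1 between -0.84 and 0.02, the 3 of Prkx between -0.93 and 0.08, and the 6 of Srr between -0.12 and 0.42. Since the deposited values hold no level, it could not be told which of these probe sets lay near background. By gene values, 7 of the shared genes named by rule were not called, namely Srr (adjusted p = 0.55), Mtor (0.211), Ppip5k1 (0.13), Prkx (0.0923), Spon2 (0.0764), Fmo2 (0.0634) and AW046200 (0.0626).

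Among the genes called over all treatments but not shared, the largest differences were those of Ppp1r3c, which directs a phosphatase to glycogen (0.995, SE 0.20, adjusted p = 0.0275), Cd47, a signal against phagocytosis (-0.99, SE 0.16, adjusted p = 0.00817), Lmod2, an actin nucleator of muscle (-0.99, SE 0.17, adjusted p = 0.017), Wfikkn2, a secreted inhibitor of myostatin (-0.92, SE 0.16, adjusted p = 0.0173), Cpeb4, a regulator of translation (-0.82, SE 0.13, adjusted p = 0.00715), and Nsg2, a neuronal endosomal protein (0.80, SE 0.15, adjusted p = 0.0227). Each had an overlap within at least 1 treatment. With 1 array left out, Ppp1r3c was called in 9 of 18 fits and Nsg2 in 17, with the highest adjusted p of both without the Dex day 30 replicate 3 (0.0651 for Ppp1r3c, 0.0517 for Nsg2). By gene values Ppp1r3c (adjusted p = 0.0527), Nsg2 (0.0554) and Cd47 (0.119) were not called. Cd47 had -1.08, -0.65 and 0.37 at day 30 after BSS, against 0.19, 0.12 and 0.33 at day 7. All 156 called but not shared probe sets had the same sign in the 3 treatments, as did 17727 of all 45101 probe sets. The 156 were picked by the day test over the same arrays, which favours equal signs, so their agreement is no independent evidence.

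Taken on its own, each treatment gave few calls. After BSS 1 probe set was called, Arntl (adjusted p = 0.0069). After Dex 4 were called, Arntl, Npas2 and Per3 (adjusted p = 0.0279 each) and Ciart (adjusted p = 0.0355). After TAA 1 was called, Saa3, an acute phase protein of inflamed tissue, with -0.66, -0.54 and -0.26 at day 30 against 2.84, 1.92 and 2.73 at day 7 (log2 fold change -2.98, SE 0.30, adjusted p = 0.00169). With 1 array left out, the calls ran between 0 and 1820 after BSS (0 without BSS day 30 replicate 1, 1820 without BSS day 30 replicate 2), between 0 and 8 after Dex (0 without any 1 Dex day 7 array, 8 without BSS day 30 replicate 1) and between 1 and 2 after TAA. The methods' t-test with Benjamini-Hochberg adjustment called 1 after BSS, 0 after Dex and 0 after TAA. At an unadjusted p under 0.05 there were 5123 probe sets after BSS, 1690 after Dex and 2236 after TAA.

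When the cut-offs of the study were applied (unadjusted p up to 0.05 together with at least a 1.5-fold difference) to limma's p-values, whose spread is pooled over the 6 groups, 1383 probe sets differed after BSS (3.07%, 995 higher and 388 lower), 172 after Dex (0.381%, 47 higher and 125 lower) and 323 after TAA (0.716%, 109 higher and 214 lower). BSS and Dex had 68 of these in common in the same direction, 4.92% of the BSS and 39.5% of the Dex probe sets, with 1 in the opposite direction. BSS and TAA had 73 in common (5.28% and 22.6%) and Dex and TAA had 60 in common (34.9% and 18.6%), with 0 in the opposite direction for both pairs. In all 3 treatments 32 probe sets met the thresholds in the same direction (0.071%), 3 higher and 29 lower, and 23 of the 32 were among the 130 shared ones. These 3 comparisons use separate arrays. With the methods' t-test in place of limma the counts were 275 for BSS, 144 for Dex and 166 for TAA. The BSS count by limma was 3103 without BSS day 30 replicate 2, 749 without BSS day 30 replicate 3 and 465 without BSS day 30 replicate 1. On gene values at these thresholds, 15 of 26 rod photoreceptor genes differed after BSS, 0 after Dex and 0 after TAA. The mean of these 26 genes was 3.23 and 3.03 on BSS day 30 replicates 1 and 3 and -0.45 on replicate 2. It lay between -1.05 and -0.51 on the BSS day 7 arrays. The part of the rod signal in the BSS count was not tested.

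**Figure D4:**
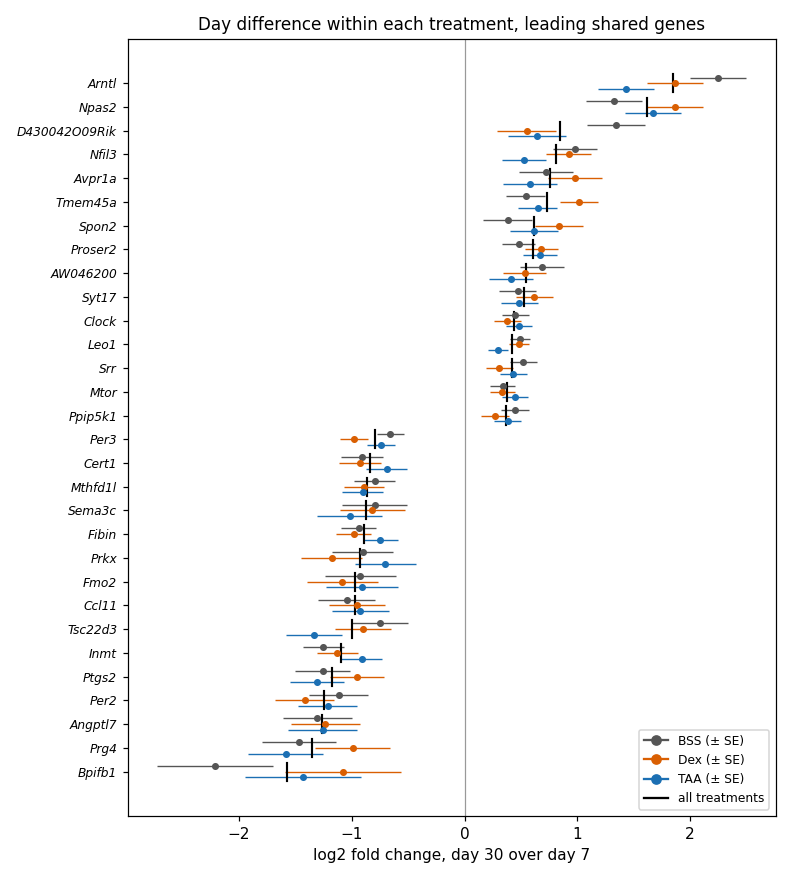
Log2 fold changes of day 30 over day 7 (horizontal axis) within BSS, Dex and TAA (points, ± SE from the spread pooled over the 6 groups) for the 15 leading shared genes in each direction, with a black mark at the value over all treatments. Every point lies on the same side of 0 as its black mark, because the genes were chosen for it. The widest spread between treatments is that of Bpifb1, with -2.21 after BSS, -1.07 after Dex and -1.43 after TAA.

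Whether the day difference itself differed between treatments was tested with limma's F-test of the interaction. No probe set was called (0, or 0%, of 45101, smallest adjusted p = 0.187, for Saa3), while 841 had an unadjusted p under 0.05, and single contrasts in place of the F-test also gave 0. Of the 130 shared probe sets 2 had an unadjusted interaction p under 0.05. They were 1 of Lamc1, a laminin chain, and the other shared probe set of Wee1 described above. The intervals leave room for differences between the treatments. For Arntl the day difference of Dex minus that of BSS was -0.38 and that of TAA minus BSS was -0.82 (95% interval ± 0.75 for each), and for Npas2 these were 0.54 and 0.35 (95% interval ± 0.75). For Saa3 the day difference was 0.13 after BSS, -0.50 after Dex and -2.98 after TAA. The next smallest interaction p-values, all with an adjusted p close to 1, were those of Aen, a nuclease induced by p53 (0.34 after BSS, -0.30 after Dex and -0.03 after TAA), Pcdh17, a protocadherin (0.95, -0.64 and 0.35), Cyp2c68, a cytochrome P450 (-0.36, 0.13 and 0.15), Gtf3c1, a subunit of a factor for RNA polymerase III (-0.07, -0.87 and -0.36), and Psg21, of the pregnancy-specific glycoproteins (0.25, 0.02 and -0.19).

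In several marker lists of other cell types, most members lay on 1 side of 0 over all treatments together, with 0 called. Over all genes, 0.209% were called higher and 0.456% lower. Rod photoreceptor genes belong to the neural retina, which was removed before the RPE/choroid was taken, and all 26 measured lay above 0, with a median log2 fold change of 1.34, although 0 were called. The rod median was 2.89 after BSS, -0.04 after Dex and 1.25 after TAA. The mean of these 26 genes on an array lay between -1.13 and 3.23 at day 30 (median 2.14) and between -1.2 and 1.75 at day 7 (median -0.29). By array it was 3.23, -0.45 and 3.03 after BSS, -1.09, 0.09 and 2.96 after Dex, and 2.14, 2.77 and -1.13 after TAA at day 30. At day 7 it was -1.05, -0.71 and -0.51 after BSS, 1.11, 1.38 and -0.29 after Dex, and -0.27, -1.2 and 1.75 after TAA. High and low arrays thus occurred on both days, with 5 of the 8 arrays above the widest gap at day 30 and 3 at day 7. Cone genes lay above 0 in 11 of 11 (median 0.63), with medians of 1.19 after BSS, 0.14 after Dex and 0.38 after TAA. Genes of synaptic vesicles lay above 0 in 15 of 16 (median 0.42), with medians of 0.87 after BSS, 0.015 after Dex and 0.29 after TAA, and 0 genes were called in either list. In whole tissue, a change in the number of cells of a type and a change in RNA per cell cannot be told apart.

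With the rod mean as a covariate, 147 probe sets were called and 77 of the 130 shared ones were still called. Arntl had 1.65 there and was still called, and the sign held for all 130. With the 8 arrays of high rod mean left out, a choice made after seeing the data, 10 arrays remained and 0 probe sets were called by limma, with an adjusted p of 0.0652 for Arntl. All 130 shared probe sets kept their sign there and 124 had an unadjusted p under 0.05. In that fit of 10 arrays the sign was fixed in advance. The probe sets were chosen for it within each treatment, and each treatment kept arrays of both days. Spon2, Bpifb1, Pla2g4a, Col14a1, Epyc, Fbln2 and Ppp1r3c were among the named genes that were no longer called with the covariate.

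Of 24 genes of the RPE itself 0 were called, beside 0.209% of all genes called higher and 0.456% called lower. At these shares, 0 calls in a list of this size say little about its genes. Of the 24, 21 lay below 0 and the median was -0.09, with medians of -0.02 after BSS, -0.05 after Dex and -0.185 after TAA. Rpe65, the isomerase of the visual cycle, had -0.25, -0.0053 and 0.14 at day 30 and -0.065, 0.0053 and 0.26 at day 7 (log2 fold change -0.09, SE 0.06, 95% interval -0.22 to 0.03). The 12 pigment genes all lay below 0 with a median of -0.14 and 0 called, and of 13 genes of phagocytosis by the RPE 7 lay below 0 (median -0.09). Adipocyte genes lay below 0 in 8 of 8 (median -0.39), macrophage and microglia genes in 14 of 17 (median -0.13), complement genes in 12 of 13 (median -0.17) and endothelial genes in 13 of 14 (median -0.15), each with 0 called. The whole array also leaned lower, with 3877 probe sets lower and 2548 higher at an unadjusted p under 0.05 by limma. That is a different measure from the sign of list members, and the share of all genes below 0 was not counted. Whether a lean below 0 is particular to these lists was not tested. Lens crystallins lay above 0 in 15 of 17 (median 0.38), with medians of 0.76 after BSS, 0.0055 after Dex and 0.33 after TAA. Surface epithelium genes lay above 0 in 12 of 14 (median 0.19), with medians of opposite sign between the treatments, -0.05 after BSS, -0.49 after Dex and 1.41 after TAA, and 0 were called in either list. The part of these tissues in the differences between the days was not tested.

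**Figure D5:**
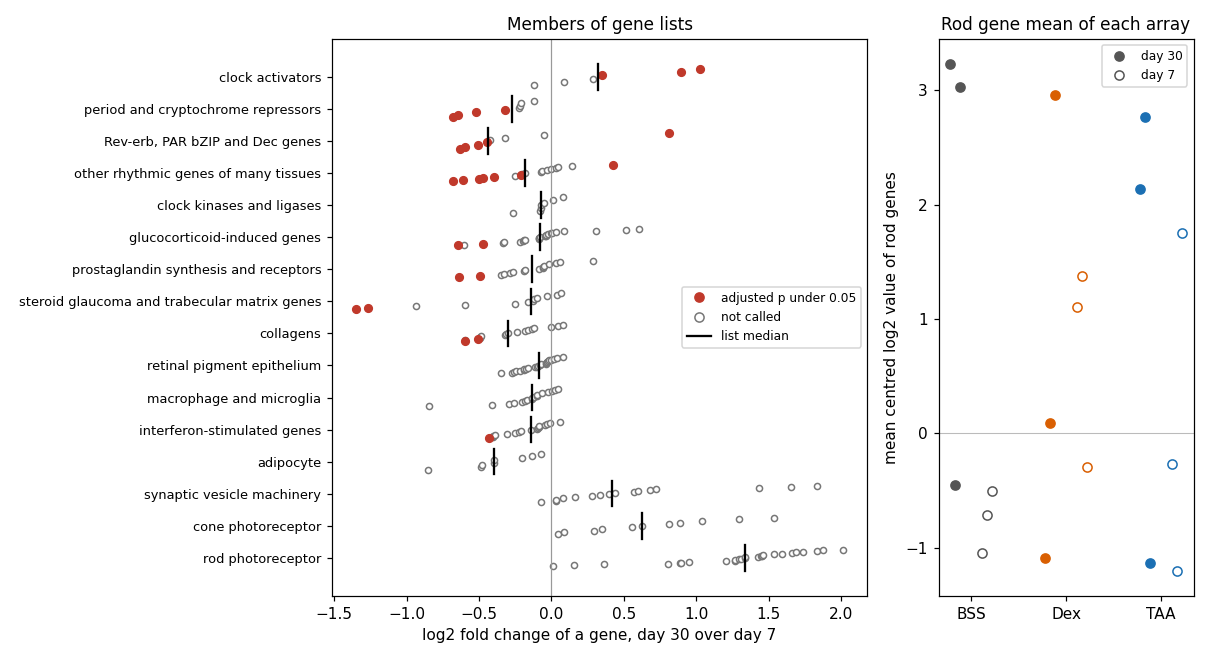
Left, log2 fold changes of day 30 over day 7 (horizontal axis) for the members of 16 gene lists, on gene values, with members called at an adjusted p under 0.05 in red, other members open and the list median as a bar. Right, the mean centred log2 value of the 26 rod genes on each array by treatment, with day 30 filled and day 7 open. The called members lie in the clock, glucocorticoid, prostaglandin, steroid glaucoma, collagen and interferon lists, while the rod list has the largest median of the lists drawn, 1.34, and no called member.

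Of 17 interferon-stimulated genes, 1 was called lower and 0 higher, beside 0.456% of all genes called lower and 0.209% higher. The called gene was Ifit2, which binds foreign RNA, and it was shared. It had -0.61, -0.22 and -0.05 at day 30 and 0.05, 0.18 and 0.34 at day 7 (log2 fold change -0.43, SE 0.07, adjusted p = 0.00902). Among lists with 0 members called, temperature-responsive genes lay above 0 in 11 of 14 (median 0.08). Immediate early genes lay below 0 in 16 of 21 (median -0.19). Cell cycle genes did so in 18 of 21 (median -0.13) and genes of cholesterol synthesis in 12 of 17 (median -0.01). The share of all genes below 0 was not counted, so these signs cannot be set against it.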

How the data were processed

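Scanned Affymetrix arrays were normalized by the authors with RMA in GeneSpring GX, and the deposited log2 values of 45101 probe sets are relative to the median array. A check found per-probe-set medians within 5e-07 of 0, so the filter on weak signals that the methods describe could not be repeated. Probe sets were named from the platform annotation, 34958 with 1 symbol, 932 with several and 9211 with none, and no gene was named from the last 2 kinds. limma 3.58.1 in R 4.3.3 was fitted with treatment as a block (14 residual degrees of freedom), and with 6 group means (12 residual degrees of freedom) for the comparisons within a treatment and the interaction. All tests were two-sided. Within 3 against 3 arrays an exact permutation test cannot go below p = 0.1.

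Genes were named by rule: the 15 leading shared genes in each direction, by the probe set of smallest p, the clock lists, up to 4 called members of each other list or its leading 3 members, the 6 largest called but not shared, and the 6 smallest interaction p-values. The members and the 39 lists were chosen with earlier results of these data known. Alternatives were other blocks, priors, array weights, normalizations, probe set summaries, filters, a rod covariate, the methods' t-test and each array left out. The code was tested on simulated data. Promoter windows of 250 bases came from RefSeq (GRCm38.p6). P-values measure the spread between these animals, and the number of arrays limits the precision.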

Additional observations from a re-analysis of the deposited data

Results flagged for a closer look

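Among 198 sets of 9 arrays of a day, 17 held an array that stood apart by Dixon's criterion, which chance alone meets in about 1 in 20 sets. BSS day 30 replicate 1 stood low for Bpifb1 (-2.56), Angptl7 (-1.73) and the mean of the collagens (-0.626). TAA day 7 replicate 1 stood high for Tsc22d3 (1.48), Ppp1r3c (0.644) and the mean of the glucocorticoid-induced genes (0.558), and low for Timeless (-0.545) and the mean of the MHC class II genes (-0.724). Dex day 7 replicate 1 stood low for Spon2 (-0.5) and Syt17 (-0.561), and Dex day 30 replicate 2 stood high for Avpr1a (1.01). Cd47 was high on BSS day 30 replicate 3 (0.366), the lens crystallins on the same array (2.31), the cell cycle genes on TAA day 7 replicate 2 (0.782) and the interferon-stimulated genes on Dex day 7 replicate 3 (0.543). The macrophage and microglia genes were low on TAA day 30 replicate 2 (-0.827) and the clock kinases and ligases on BSS day 7 replicate 1 (-0.136).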

How the results depend on the processing

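The sign of the day difference held for all 130 shared probe sets in each fit on the same probe sets. These fits used another block, prior, weighting or normalization, the rod covariate or fewer arrays. Where arrays were only blocked, reweighted or left out, the sign was fixed in advance, because the probe sets were chosen for it. All 130 had an unadjusted p under 0.05 in each of these fits but the one without arrays of high rod mean, a choice made after seeing the data. The 130 were chosen at an adjusted p under 0.05 on the same arrays, so these fits are no independent evidence. The count of 286 called probe sets was 180 with 6 group means, 580 with array weights, 121 on the mean of a gene's probe sets, 147 with the rod covariate and 0 without the 8 arrays of high rod mean. The count of 130 shared probe sets was 63 on gene means, 77 with the rod covariate, 32 by the thresholds of the study and 0 without the arrays of high rod mean. The gene means test fewer features and the fit of 10 arrays has fewer samples, but the cause was not tested for any of these shifts. With the probe set of largest SD of each gene, 216 were called and 93 were shared.

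Leaving out 1 array gave 109 (without Dex day 30 replicate 3) to 436 (without BSS day 30 replicate 2) called, and 13 of the 18 fits moved the count by over 1.5 times. Those were 431 without Dex day 30 replicate 1, 113 without TAA day 7 replicate 2, 123 without TAA day 30 replicate 2, and between 155 and 181 without BSS day 7 replicates 2 or 3, Dex day 7 replicates 1, 2 or 3, TAA day 7 replicate 3, BSS day 30 replicate 1 or TAA day 30 replicate 1. The shared count ran between 82 (without Dex day 30 replicate 3) and 213 (without Dex day 30 replicate 1), with 211 without BSS day 30 replicate 2 and 200 without Dex day 30 replicate 2. The interaction gave 0 in each.

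At the thresholds of the study, leaving out 1 array gave 465 to 3103 for BSS, 168 to 294 for Dex and 197 to 1056 for TAA (without TAA day 30 replicate 2 or 3), and the calls within a treatment ran between 0 and 1820 for BSS (without BSS day 30 replicate 2), 0 and 8 for Dex and 1 and 2 for TAA. The TAA threshold count was 212 without TAA day 7 replicate 2 and 586 without replicate 3, and the Dex one was 294 and 267 without Dex day 30 replicates 1 and 2. The BSS call was lost without BSS day 7 replicate 1 or BSS day 30 replicates 1 or 3, and 2 were called without BSS day 7 replicate 3 and 3 without TAA day 7 replicate 1. For TAA 2 were called without BSS day 30 replicate 1, Dex day 30 replicate 1 or TAA day 7 replicate 3. The Dex calls were 0 without BSS day 7 replicate 3, any Dex day 7 array, Dex day 30 replicate 2 or TAA day 30 replicate 1, 1 without Dex day 30 replicate 3, and 8 without BSS day 30 replicate 1. The methods' t-test gave 275 for BSS and 166 for TAA at these thresholds, and 0 calls for Dex and 0 for TAA. Rora had 0.11 with the probe set of largest SD, and Bhlhe41 had 0.0549 without the arrays of high rod mean, against negative values elsewhere; neither was called.

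With the replicate number as a replicate block, 206 probe sets were called and 111 shared, and the calls for Dex went to 0. Same-numbered samples of the 2 days within a treatment deviated together (r over 0.1) in 2 of 9 pairs of arrays. The r lay between -0.675 and 0.213. Pairs of unlike number ran between -0.552 and 0.564, so r does not show whether a shared number stands for anything more.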
